A study of Mus musculus with 61 samples.

Results

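Ins(2xCBS-d4d8) stembryos carry, between Hoxd4 and Hoxd8, an inserted cassette with 2 binding sites for CTCF. Stembryos, or gastruloids, form when mouse embryonic stem cells are aggregated in culture; they lengthen along 1 axis and produce tissues of the posterior embryo. CTCF is a DNA-binding protein that halts loop extrusion by cohesin, and in the HoxD cluster its sites separate the genes that are switched on early from those switched on late. The comparison concerns RNA outside this cluster, and whether the mutant stembryos ran ahead of or behind wild type in developmental time. Members were chosen by genotype and stage from the sample titles. Of the wild type, only libraries low in 2 mitochondrial transcripts, named below, were kept, which left out its replicates 1 to 3. This gave 10 of the 61 RNA-seq libraries of the series. At 96 h and at 120 h of culture, 2 libraries of Ins(2xCBS-d4d8) stood against 3 wild-type libraries, replicate 4 of the wild type and replicates 1 and 2 of the wild-type time course. All were grown from embryonic stem cells, treated with the GSK-3 inhibitor Chiron as aggregates, and pooled before RNA extraction. Wild type was the EmbryoMax 129/SVEV line, and the mutant was a homozygous clonal line made from it by CRISPR-Cas9 editing, so that the insertion and any other difference of this line cannot be told apart. The sample titles do not say whether any control was grown or sequenced together with the mutant. A difference between experiments therefore cannot be told apart from genotype either. Aggregates were taken without selection at 96 h, whereas those taken at 120 h had been chosen for elongation. The study calls the mutant replicates independent samples, without saying what each was grown from, and the tests measure only the spread between these libraries.

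Values are FPKM, sequenced fragments normalised to transcript length in kilobases and to library depth, as deposited, and differences are mutant minus wild type on the scale log2(FPKM + 0.1), which understates the change of low genes. The inferred depth of the 10 libraries lay between 21.5 M and 24.5 M fragments. The libraries were matched by set, because mt-Co2 and mt-Co3, subunits of cytochrome oxidase made in mitochondria, were nearly missing in all of them. For mt-Co2 the mutant libraries had 2.59 to 3.85 FPKM and the matched wild type 0.447 to 1.42 FPKM, against at least 1047 FPKM in wild-type replicates 1 to 3 of the same stages. Within the matched set the mutants were still the higher, and 9 of 10 tested mitochondrial transcripts were above all 3 controls at each stage and none below. Their part in the results was not tested. Mutant replicates correlated at Pearson's r of 0.94 and 0.95 across genes, and pairs of controls at 0.89 to 0.93. The 2 time-course libraries of a stage correlated at 0.927 at both stages, near the mutant pairs. Pairs with wild-type replicate 4, which is not of the time course, were at 0.885 to 0.915. By this measure the controls differed most between replicate 4 and the time course. All 10 libraries expressed T and Tbx6, markers of posterior mesoderm, at 21.2 FPKM and 7.68 FPKM or more. In RNA from whole stembryos, fewer cells of a type cannot be told apart from less RNA per cell.

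Few genes separated the mutant from this wild type. Of 12832 genes tested with limma, 31 were higher and 6 lower at 96 h (0.242% and 0.0468% of all genes tested) at a Benjamini-Hochberg adjusted p under 0.05, and 36 were higher and 15 lower at 120 h (0.281% and 0.117%). At an unadjusted p below 0.05 there were 1992 genes at 96 h and 1562 at 120 h. At both stages 18 genes were called higher and 2 lower. A share of these calls, 12 of 37 at 96 h and 24 of 51 at 120 h, were genes that the tables list at exactly 0 in at least 1 of the 61 libraries and nowhere between 0 and 0.5 FPKM. Of all 12832 genes tested, 621 were of this kind. When such genes were left out of the fit, limma called 14 genes at either stage (0.115% of 12211 genes). With all 61 libraries sharing 1 estimate of the spread, the calls were 2483 at 96 h and 1412 at 120 h. Omitting 1 library gave 26 to 63 calls at 96 h, with 58 without time-course replicate 1 of 96 h and 63 without wild-type replicate 4 of 120 h, and 39 to 85 calls at 120 h, with 85 without time-course replicate 2 of 96 h. Genes without this jump from 0 are described first.

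The largest falls concerned Grb10 and Dnmt3l. Grb10, an imprinted gene for an adaptor protein that dampens insulin and IGF signalling, lies in mm10 on chromosome 11 from 11930508 to 12038683. Its FPKM was 3.51 and 3.13 in the mutant libraries at 96 h and 39.9, 19.1 and 34.8 in the controls, and at 120 h it was 2.48 and 2.21 against 67.0, 35.5 and 20.9. The groups did not overlap at either stage, and the mutant mean was 9.40-fold lower at 96 h and 17.5-fold lower at 120 h. Grb10 fell at 120 h (log2 difference -3.91 ± 0.49 SE, adjusted p = 0.0221), while at 96 h the difference of -3.13 ± 0.49 had an adjusted p of 0.0636. Without time-course replicate 1, or without any single mutant library, the 120 h call was lost, with adjusted p up to 0.20. Values as low occurred elsewhere in the series: 3 of 13 libraries of other mutants at 96 h and 3 of 14 at 120 h were at or below the Ins(2xCBS-d4d8) libraries, and wild-type replicates 1 to 3 ranged from 19.1 to 178 FPKM.

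Dnmt3l, the partner of the de novo DNA methyltransferases that lacks catalytic activity itself, lies on chromosome 10 from 78042287 to 78063622. In the mutant it was at 0.144 and 0.143 FPKM at 96 h and at 0.090 and 0.0545 FPKM at 120 h. The controls had 0.637, 1.09 and 1.18 FPKM at 96 h and 1.25, 2.10 and 1.97 FPKM at 120 h, so that no library overlapped with the other group. The fall was 2.09 ± 0.29 (adjusted p = 0.0489) and then 3.42 ± 0.29 (adjusted p = 0.00221) on the log2 scale. The 96 h call was kept in only 6 of 20 alternatives and the 120 h call in 19 of 20, the exception being a comparison with wild-type replicates 1 to 4. As with Grb10, low values were not limited to this line, since 5 of 14 libraries of other mutants at 120 h were at or below it.

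Pip4p2 fell by about the same amount at both stages. It encodes a phosphoinositide phosphatase and lies on chromosome 4 from 14864076 to 14915176. The mutant libraries had 11.6 and 10.8 FPKM at 96 h against 22.05, 27.2 and 23.8 FPKM, and 14.7 and 13.8 FPKM at 120 h against 27.2, 34.5 and 30.0 FPKM. The groups did not overlap, and Pip4p2 fell by 1.11 ± 0.13 (adjusted p = 0.0241) and 1.09 ± 0.13 (adjusted p = 0.0187) on the log2 scale. All 27 libraries of other mutants at these stages were above the Ins(2xCBS-d4d8) libraries of their stage (lowest 18.97 FPKM at 96 h and 21.0 FPKM at 120 h), as were wild-type replicates 1 to 3 (20.4 to 24.1 FPKM). The fall was called with wild-type replicates 1 to 4 as controls too, but it was lost without any 1 mutant library and without time-course replicate 2 of 120 h, and at 96 h also without time-course replicate 2 of 96 h, with adjusted p up to 0.17.

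**Figure D1:**
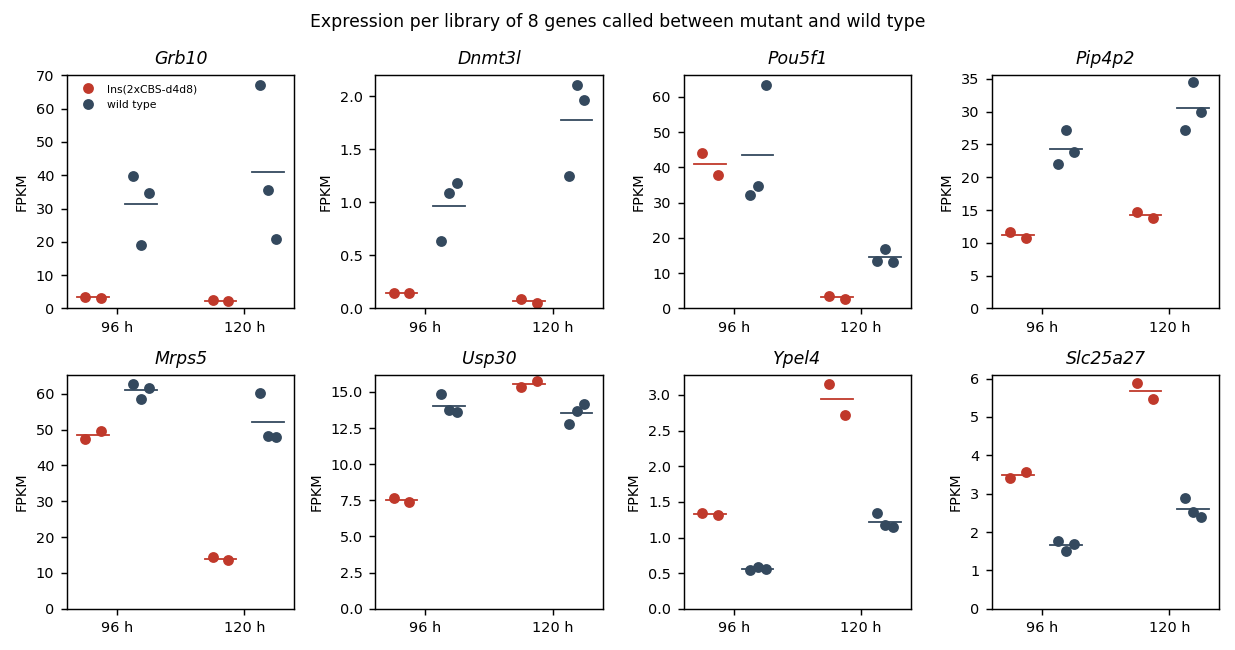
FPKM of 8 called genes (vertical axes, linear and starting at 0) in each of the 2 mutant libraries (red) and 3 matched wild-type libraries (dark blue) at 96 h and 120 h. Short lines are group means. Grb10, Dnmt3l and Pip4p2 are below the controls in every mutant library of both stages, Pou5f1 and Mrps5 are called at 120 h alone, Usp30 at 96 h alone, and Ypel4 and Slc25a27 are above the controls at both stages.

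Other falls were called at 1 stage. Mrps5, a protein of the small subunit of the mitochondrial ribosome, was at 14.4 and 13.6 FPKM in the mutant at 120 h and at 60.2, 48.3 and 48.0 FPKM in the controls (log2 difference -1.89 ± 0.12, adjusted p = 0.000236), a call kept in all 20 alternatives. At 96 h its values of 47.2 and 49.7 FPKM against 62.8, 58.5 and 61.6 FPKM gave a difference of -0.33 ± 0.12 (adjusted p = 0.25). None of the 14 libraries of other mutants at 120 h was as low, the lowest having 35.8 FPKM. Usp30, a deubiquitinase of the outer mitochondrial membrane, took the other course: it was at 7.66 and 7.36 FPKM against 14.8, 13.7 and 13.6 FPKM at 96 h (-0.90 ± 0.08, adjusted p = 0.0065) and at 15.3 and 15.8 FPKM against 12.8, 13.7 and 14.2 FPKM at 120 h (0.20 ± 0.08, adjusted p = 0.40). However, wild-type replicates 1 to 3 had 6.54 to 9.55 FPKM of Usp30 at 96 h, like the mutant. The difference between the stages was itself called for both genes, with adjusted p of 0.0123 for Mrps5 and 0.0128 for Usp30. Of all genes tested, 22 had such a change between stages (0.171%), and 20 of them were of the kind listed at 0 or well above it. Without that kind limma called 0 genes for the change between stages, with 389 at an unadjusted p under 0.05.

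Pou5f1, the transcription factor at the core of the pluripotency network, stood at 44.0 and 37.8 FPKM at 96 h in the mutant against 32.2, 34.7 and 63.3 FPKM in wild type, and both groups lost most of it by 120 h. At 120 h the mutant was the lower, with 3.66 and 2.65 FPKM against 13.4, 17.0 and 13.2 FPKM (a difference of -2.18 ± 0.30, adjusted p = 0.0396). The change between stages was not called for Pou5f1, so that a larger loss in the mutant was not shown. The 120 h call was kept in 7 of 20 alternatives, and 7 of 14 libraries of other mutants were as low. Nkx3-2, a homeobox gene of the sclerotome, was listed at 0 in the 5 libraries of 96 h, and at 120 h had 0.432 and 0.419 FPKM in the mutant and 1.11, 1.10 and 1.66 FPKM in wild type (-1.38 ± 0.16, adjusted p = 0.018). Gsk3b, the kinase that Chiron inhibits and that marks β-catenin for destruction, was at 22.8 and 23.0 FPKM at 120 h against 35.9, 34.0 and 36.7 FPKM (-0.63 ± 0.09, adjusted p = 0.0401). Smaller falls at 120 h, between -0.85 and -0.63, were called for Pdp2, a phosphatase that activates pyruvate dehydrogenase, for the arginine sensor Castor1, and for the zinc finger genes Zfp235, Zfp526 and Zfp790. At 96 h Arhgef2, an activator of the GTPase RhoA bound to microtubules, fell by 0.76 ± 0.10 (adjusted p = 0.0482). When wild-type replicate 4 was removed at both stages, Pou5f1, Gsk3b, Castor1, Zfp235, Zfp526, Zfp790 and Arhgef2 were no longer called, while Mrps5, Usp30, Nkx3-2 and Pdp2 were.

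Among the rises at both stages, Ypel4 had the lowest adjusted p of the annotated genes that were above 0 throughout. It was at 1.34 and 1.32 FPKM against 0.549, 0.590 and 0.555 FPKM at 96 h (1.11 ± 0.10, adjusted p = 0.0065), and at 3.15 and 2.72 FPKM against 1.35, 1.17 and 1.15 FPKM at 120 h (1.2 ± 0.10, adjusted p = 0.00205). Slc25a27, a carrier of the inner mitochondrial membrane, was at 3.40 and 3.57 FPKM against 1.76, 1.498 and 1.69 FPKM and then at 5.88 and 5.46 FPKM against 2.89, 2.51 and 2.39 FPKM, with log2 differences of 1.04 ± 0.11 (adjusted p = 0.014) and 1.10 ± 0.11 (adjusted p = 0.00645). Both genes thus increased from 96 h to 120 h in either genotype, and the mutant was about equally ahead at both stages. Against wild-type replicates 1 to 4 neither was called, as replicates 1 to 3 had 1.03 to 1.71 FPKM of Ypel4 and 2.67 to 4.30 FPKM of Slc25a27 at 96 h.

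The long noncoding RNAs Dancr and Snhg5, the second a host of small nucleolar RNAs, also rose at both stages. Dancr had 42.3 and 48.2 FPKM at 96 h against 20.1, 18.6 and 13.3 FPKM and 49.4 and 49.5 FPKM at 120 h against 18.7, 22.9 and 20.5 FPKM. Snhg5 had 152 and 151 FPKM against 87.0, 81.0 and 91.2 FPKM, then 148 and 129 FPKM against 77.6, 86.7 and 73.7 FPKM. Their adjusted p lay between 0.031 and 0.0474, and both calls were lost against wild-type replicates 1 to 4, of which replicates 1 to 3 had 38.5 to 46.5 FPKM of Dancr at 96 h. No library of another mutant at these stages reached the level of Snhg5 in Ins(2xCBS-d4d8). Zmym6, a zinc finger gene, and the pseudogene Tmem181b-ps completed this class with log2 differences of 0.75 to 1.22. Tmem181b-ps may share reads with its parent gene, and against wild-type replicates 1 to 4 its difference was -0.59 at 96 h and -0.32 at 120 h. Called higher at 96 h alone were Jakmip3 (2.29 ± 0.31), Cnpy1 (1.78 ± 0.20), Dqx1 (1.47 ± 0.16), Ankrd23 (1.21 ± 0.15), the pseudogene Slc2a4rg-ps (1.08) and the ADP-ribosyltransferase Parp12 (0.78 ± 0.10). The F-box gene Fbxo36 (0.80 ± 0.10) was called at 120 h alone. At 120 h Dqx1 (1.61 to 1.77 FPKM against 0.729 to 0.758 FPKM), Ankrd23 and Slc2a4rg-ps were still above all controls. Cnpy1 and Parp12 overlapped with the controls there, and Jakmip3 was below them. Fbxo36 was above all controls at 96 h too. Against wild-type replicates 1 to 4 only the call of Jakmip3 was kept. Replicates 1 to 3 had 1.32 to 2.38 FPKM of Cnpy1 and 1.99 to 3.21 FPKM of Slc2a4rg-ps at 96 h. Jakmip3 had 1.41 and 1.26 FPKM against 0.197, 0.349 and 0.0903 FPKM, and the other 13 mutant libraries of 96 h reached at most 0.894 FPKM.

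**Figure D2:**
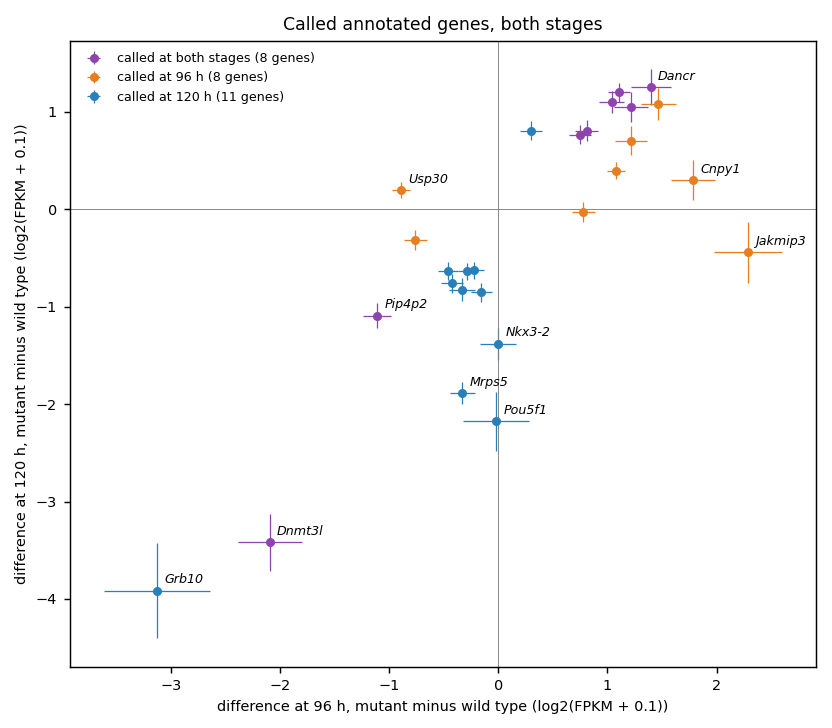
Difference between mutant and wild type at 96 h (horizontal axis) and 120 h (vertical axis) on the scale log2(FPKM + 0.1) for the 27 called annotated genes that were not listed at 0 or well above it, with standard errors of the fit as bars. The 8 genes called at both stages lie in the upper right or lower left, whereas Usp30, Jakmip3 and Cnpy1 are called at 96 h alone and Mrps5, Pou5f1 and Nkx3-2 at 120 h alone.

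The calls with the lowest adjusted p were genes at 0 throughout 1 group. Malsu1 was at 14.9 and 13.8 FPKM at 96 h and at 14.7 and 14.98 FPKM at 120 h in the mutant, and was listed at 0 in the 6 controls. It was also listed at 0 in 38 of the 61 libraries, and where it was not its lowest value was 9.68 FPKM, so that intermediate values did not occur. Ddb2, a DNA damage sensor, showed the same (6.06 to 7.41 FPKM in the mutant, 0 in the controls and in 37 of 61 libraries), as did Uspl1 (17.8 to 24.8 FPKM, 0 in 46 of 61 libraries), which was listed at 0 in every other library of 96 h and 120 h. For Ddb2 the FPKM estimate was not marked as OK in at least 1 of the 10 libraries. This held for 10 genes, of which 9 were tested and 2 called. In the other direction Aph1a, a subunit of γ-secretase, was listed at 0 in both mutant libraries of 120 h against 7.96, 9.73 and 10.7 FPKM, although the 96 h libraries had 7.61 and 7.55 FPKM. Traf3ip2 and Adcy3 were likewise listed at 0 in the mutant at 120 h, and Mtif3 at 96 h. Of the 28 called genes of this kind 26 (92.9%) overlapped another gene of the annotation. So did 503 of all 621 tested genes of this kind (81.0%), called or not. The share was 42.5% of the other 40 called genes and 49.7% of all genes tested. A value listed at 0 need not mean that a gene is silent, so that no fold is given against such a group.

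The markers of axial identity showed differences in level at 96 h that the test could not separate from the spread among controls. Hox genes of the trunk and Cdx genes, which switch Hox clusters on, are active in the tail bud, where neuromesodermal progenitors supply both spinal cord and somites. Hoxb9 had 178 and 150 FPKM in the mutant and 57.1, 115 and 5.53 FPKM in wild-type replicate 4 and time-course replicates 1 and 2. Hoxc6 had 13.1 and 11.7 FPKM against 4.21, 6.49 and 0.328 FPKM, and Cdx4 had 55.5 and 44.8 FPKM against 17.2, 46.8 and 0.953 FPKM. Time-course replicate 2 was thus the lowest library by far, and the mutant was above all controls for Hoxb9 and Hoxc6 but overlapped for Cdx4. Their log2 differences, 2.30 ± 1.14, 2.44 ± 1.18 and 2.4 ± 1.5, had adjusted p of 0.379, 0.366 and 0.478.

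Counted by list, both mutant libraries exceeded all 3 controls in 5 of 6 tested Hoxc genes, 4 of 9 Hoxb genes, 4 of 9 Hoxa genes and 7 of 19 genes of neuromesodermal progenitors and the tail bud at 96 h, and no gene of these lists was below. Over all genes tested 18.1% were above and 21.0% below. The median log2 difference was 2.06 for Hoxc genes, 0.74 for Hoxb genes, 0.17 for Hoxa genes and 0.61 for tail bud genes, against -0.01 over all genes, and no member was called. Without time-course replicate 2 the medians became 1.02 for Hoxc genes, 0.06 for Hoxb genes, 0.13 for Hoxa genes and 0.51 for tail bud genes, with 5 Hoxc genes and 7 tail bud genes above the remaining controls. The count of tail bud genes above the controls rested on single libraries, being 18 of 19 without time-course replicate 1 and 14 without mutant replicate 2. With all 61 libraries in the fit, 10 of 19 tail bud genes and 5 of 6 Hoxc genes were called higher at 96 h, where 8.39% of all genes were. Among them were Cdx2 (140 and 128 FPKM against 60.1, 112 and 25.3 FPKM) and Nkx1-2 (140 and 119 FPKM against 50.4, 87.9 and 23.8 FPKM). Nkx1-2, like several list members described from here on, was named after its values were seen. At 120 h the medians were 0.63 for Hoxc genes, 0.23 for Hoxb genes and -0.02 for tail bud genes, all closer to 0 than at 96 h, and 0.64 for Hoxa genes, which was farther. Hoxb9 then had 125 and 153 FPKM against 129, 52.0 and 127 FPKM.

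Genes of the paraxial mesoderm leaned the other way at 96 h. In the presomitic mesoderm, where the Notch oscillator sets somite boundaries, 8 of 18 tested genes were below all controls in both mutant libraries and 1 was above (21.0% and 18.1% of all genes), with a median difference of -0.66. Dll3, a Notch ligand of the oscillator, had 29.0 and 35.7 FPKM against 86.04, 78.3 and 61.4 FPKM (-1.21 ± 0.42, adjusted p = 0.248), whereas Tbx6 (120 and 111 FPKM against 168, 159 and 110 FPKM) and Hes7 overlapped with the controls. The exception above all controls was the Wnt target Notum, at 51.1 and 46.4 FPKM against 9.64, 35.4 and 5.04 FPKM. Among 18 tested somite genes 7 were below and 1 above, with a median of -1.01. Foxc2 had 13.5 and 31.1 FPKM against 57.3, 42.3 and 79.1 FPKM, and Meox1, a homeobox gene of the forming somite, had 38.6 and 91.5 FPKM against 216, 86.5 and 186 FPKM, with a difference of -1.35 ± 0.45 and an adjusted p of 0.242. The mutant libraries differed from each other here, with replicate 1 the lower, and the medians without it were -0.45 for the somite list and -0.42 for the presomitic list. No gene of either list was called at 96 h, and with all 61 libraries in the fit 7 of 18 presomitic and 8 of 18 somite genes were called lower, where 11.0% of all genes were.

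By 120 h the somite list had a median of -0.16, with Meox1 at 291 and 281 FPKM against 318, 280 and 319 FPKM, and Nkx3-2, described above, as its only call. The presomitic list stayed low, at -0.83, with 8 of 18 genes below all controls and none above, against 19.5% and 12.9% of all genes. Tbx6 had 7.68 and 7.97 FPKM against 9.52, 28.8 and 38.6 FPKM, and Msgn1, its partner in specifying this tissue, 2.702 and 2.37 FPKM against 3.13, 15.5 and 16.4 FPKM. In both, wild-type replicate 4 was closer to the mutant than to the time course, and the list's median was -1.30 without that library and -0.48 without time-course replicate 2. The T gene, which maintains tail bud mesoderm, was at 138 and 125 FPKM against 65.3, 107 and 70.4 FPKM at 96 h and at 21.2 and 23.3 FPKM against 29.2, 39.2 and 58.4 FPKM at 120 h, outside the range of the controls at both stages but in opposite directions. Neither difference of T was called (0.74 ± 0.31 and -0.87 ± 0.31, adjusted p of 0.313 and 0.335), nor was the change between stages.

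**Figure D3:**
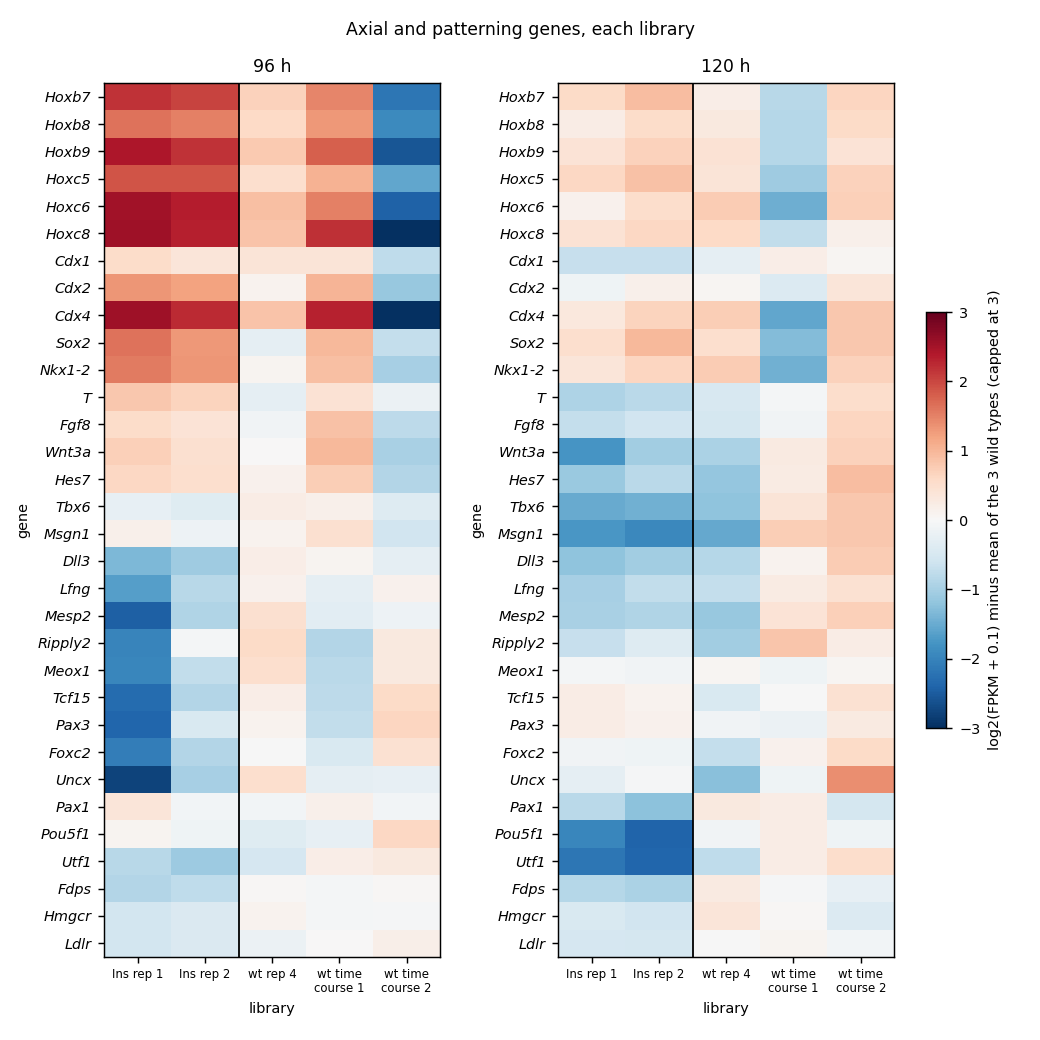
Level of 32 genes of axial identity, mesoderm, pluripotency and sterol synthesis in each library, as log2(FPKM + 0.1) minus the mean of the 3 wild-type libraries of that stage; red is higher and blue lower, capped at 3. Both mutant libraries are high in Hoxb, Hoxc and Cdx genes at 96 h, where wild-type time-course replicate 2 is low, and mutant replicate 1 is the lower one in somite genes.

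Genes of pluripotency were low in the mutant at 120 h. The list for naive pluripotency also holds genes not particular to that state, such as Pou5f1. Of its 14 tested genes 11 were below all controls in both mutant libraries and none above (19.5% and 12.9% of all genes). The median log2 difference was -1.08, and Pou5f1 and Dnmt3l passed the test. Utf1 had 0.548 and 0.460 FPKM against 1.63, 3.30 and 4.11 FPKM (adjusted p = 0.083), and Nanog had 1.83 and 1.01 FPKM against 3.25, 3.13 and 2.66 FPKM (adjusted p = 0.25). Sox2, which the list holds and neural progenitors also use, had 32.3 and 45.05 FPKM against 32.4, 9.13 and 39.7 FPKM. The median stayed between -1.29 and -0.88 when any 1 library was left out, and it was -1.10 against wild-type replicates 1 to 4. At 96 h the same list had a median of -0.21, with 5 genes below and 2 above the controls. Of 13 genes of the epiblast and primitive streak 6 were below the controls at 120 h and none above (median -0.87), among them Nodal, at 0.394 and 0.379 FPKM against 1.17, 2.12 and 1.43 FPKM, and none was called.

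The enzymes of cholesterol synthesis lay below wild type at both stages by small amounts, and none was called. All 3 controls exceeded both mutant libraries in 13 of 20 tested genes at 96 h and in 16 of 20 at 120 h, where 21.0% and 19.5% of all genes were below, and no gene lay above, with medians of -0.37 and -0.42. Summed over the list, the mutant libraries had 871 to 924 FPKM at 96 h and 893 to 921 FPKM at 120 h, and the controls at least 1113 FPKM and 1054 FPKM. Fdps, which makes farnesyl diphosphate, had 87.4 and 95.9 FPKM against 165, 155 and 165 FPKM at 96 h and 90.4 and 84.6 FPKM against 199, 161 and 138 FPKM at 120 h. With differences of -0.82 ± 0.15 and -0.91 ± 0.15 it missed the threshold (adjusted p of 0.0906 and 0.0717), as did every other gene of the list. Over 61 libraries 11 of 20 genes were called lower at each stage, where 11.0% and 7.22% of all genes were. Against wild-type replicates 1 to 4 as controls the medians were -0.06 and -0.18, and 4 genes were below at each stage. For Fdps, chosen after its values were seen, all libraries of other mutants at both stages were above Ins(2xCBS-d4d8), the lowest having 103 FPKM.

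Imprinted genes lay on both sides of wild type. Of 26 tested, Grb10 included, 7 were above and 6 below the controls at 96 h, and 6 above and 6 below at 120 h, with medians of 0.04 and 0.14. These shares are near those over all genes, of which 18.1% were above and 21.0% below at 96 h and 12.9% and 19.5% at 120 h. Cdkn1c, a cell cycle inhibitor expressed from the maternal allele, had 0.576 and 0.777 FPKM against 4.66, 3.52 and 9.90 FPKM at 96 h (-2.85 ± 0.43, adjusted p = 0.0593) and 2.97 and 3.94 FPKM against 20.2, 13.2 and 12.5 FPKM at 120 h (adjusted p = 0.129). Rian and Meg3, maternally expressed noncoding RNAs of 1 imprinted domain on chromosome 12, lay above the controls at both stages, Rian with 500 and 489 FPKM against 242, 275 and 278 FPKM at 96 h and 665 and 617 FPKM against 265, 408 and 325 FPKM at 120 h. Dlk1, the paternally expressed gene of the same domain, had 6.01 and 3.53 FPKM against 23.5, 24.7 and 12.3 FPKM at 120 h. None of these 4 was called, with adjusted p from 0.0593 to 0.458. No other library of these stages from another mutant reached Rian in Ins(2xCBS-d4d8), the highest having 415 FPKM at 96 h and 515 FPKM at 120 h. For Meg3 this held at 120 h alone, where the highest had 221 FPKM. At 96 h 7 of 13 libraries of other mutants were at or above the lower Ins(2xCBS-d4d8) library (106 FPKM), and wild-type replicates 1 to 3 had 54.2 to 154 FPKM.

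**Figure D4:**
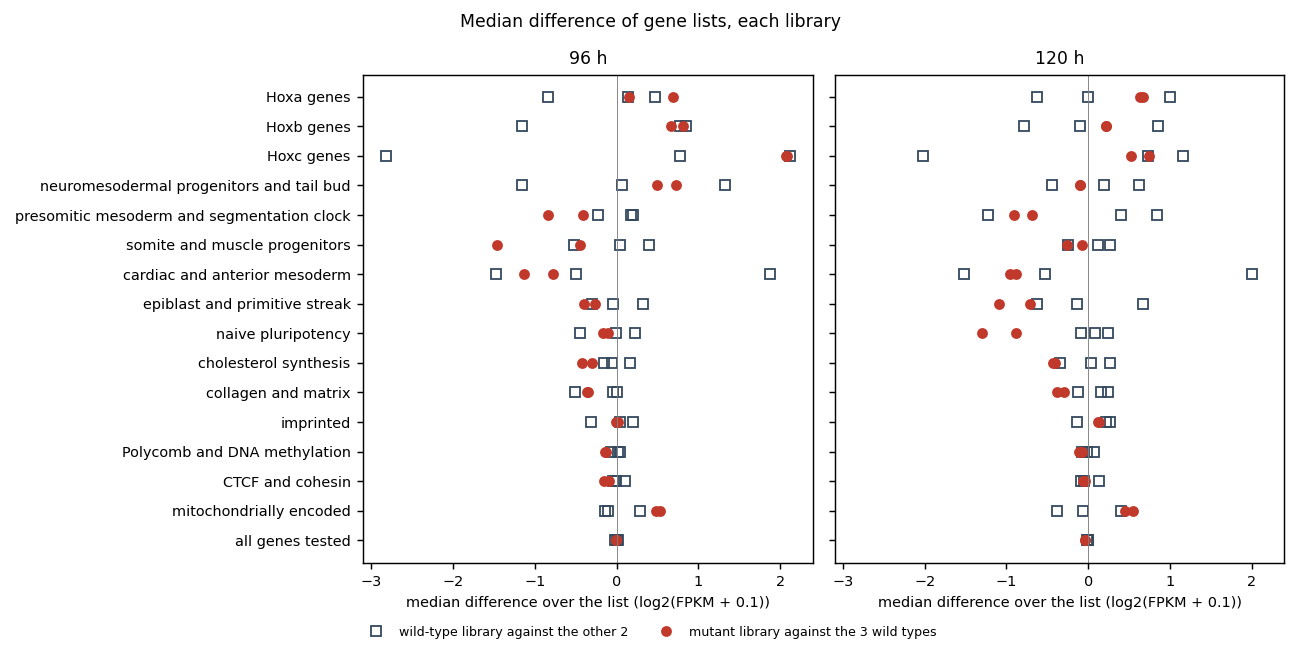
Median difference over each gene list (horizontal axis, log2(FPKM + 0.1)) at 96 h and 120 h. Red circles are the 2 mutant libraries against the mean of the 3 wild types, and open squares each wild-type library against the mean of the other 2. The mutant circles lie to the left of the squares for presomitic genes at 96 h and naive pluripotency at 120 h, and within the wide spread of the squares for cardiac genes.

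Across 39 lists, 456 distinct genes were tested, of which 1 was called at 96 h (lower) and 4 at 120 h (all lower), or 0.219% and 0.877%: Dnmt3l at both stages and Pou5f1, Nkx3-2 and Grb10 at 120 h. For other tissues the medians were -0.45 and -0.79 in endoderm, -0.20 and -0.67 in endothelium, -1.0 and -1.04 in cardiac and anterior mesoderm, 0.09 and 0.41 in spinal cord, and -0.69 and -0.65 in neural crest at 96 h and 120 h. The cardiac list showed how far controls spread, as each wild-type library lay between -1.52 and 2.01 from the mean of the others. Signalling lists had medians of 0.12 and -0.41 for Wnt, 0.34 and -0.38 for FGF, -0.42 and -0.41 for Nodal and TGF-β, -0.11 and -0.33 for BMP and -0.16 and 0.00 for retinoic acid. Collagen and matrix genes had -0.36 and -0.35, with 7 and 6 of 15 below the controls, where 21.0% and 19.5% of all genes were. Lists of the general state of the cells stayed within 0.2 of 0: glycolysis (-0.08 and 0.15), p53 targets (0.14 and 0.00), the integrated stress response (0.17 and 0.06), the cell cycle (-0.05 and -0.01) and ribosomal proteins (-0.09 and -0.06). Regulators of chromatin were below the controls more often than above at 96 h, in 12 against 4 of 24 genes of Polycomb and DNA methylation (median -0.12) and in 8 against 1 of 17 genes of CTCF and cohesin (median -0.09), where 21.0% of all genes were below and 18.1% above. Against wild-type replicates 1 to 4 these counts were 2 against 3 and 0 against 3.

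At the edited locus itself 5 Hoxd genes passed the filter, and none was called. Hoxd4, on the side of the insertion that is activated first, had 27.8 and 29.1 FPKM at 96 h against 23.6, 23.2 and 14.7 FPKM and 33.7 and 44.1 FPKM at 120 h against 20.6, 14.2 and 26.7 FPKM (0.95 ± 0.30, adjusted p = 0.29). Hoxd3 had 31.3 and 26.4 FPKM at 120 h against 10.3, 15.5 and 23.3 FPKM, and with all 61 libraries in the fit Hoxd3 and Hoxd4 were called higher at 120 h, where 3.79% of all genes were. With Hoxd levels taken relative to Hoxa and Hoxc levels in each library, the Hoxd4 difference at 96 h turned from 0.50 to -0.71 (adjusted p = 0.463) and that of Hoxd9 from 0.54 to -0.67, Hoxd1 at 120 h turned from 0.16 to -0.59, and Hoxd3 and Hoxd4 at 120 h were at 0.13 and 0.20. Hoxd8, on the far side, had 2.24 and 1.45 FPKM against 4.01, 2.71 and 0.790 FPKM and then 6.94 and 9.996 FPKM against 6.74, 6.05 and 20.1 FPKM. The log2 Hoxa and Hoxc level used for scaling was 1.29 and 1.14 in the mutant at 96 h against 0.42, 0.81 and -1.23. At 120 h it was 0.64 and 0.72 against 0.12, -1.12 and 0.77. Scaling thus lowered every Hoxd difference at 96 h, that of Hoxd8 included. Scaling likewise by Hoxa and Hoxc genes, the paper reports a decrease of several genes from Hoxd3 to Hoxd9 at the earlier stage. It describes Hoxd8 and Hoxd9 as still affected at the later stage. Hoxd3os1, an antisense gene on chromosome 2 from 74703248 to 74716130 that overlaps Hoxd3 in the tables, was at 16.9 and 19.7 FPKM at 96 h and 5.07 and 6.57 FPKM at 120 h, and was listed at 0 in all 6 controls. It was above 0 in 10 of 61 libraries: these 4, the 4 of Del(d1-d4), with 1.04 to 6.24 FPKM, and both of the wild type at 168 h. It is one of the genes at 0 or well above it, and whether reads of Hoxd3 or Hoxd4 enter its value was not tested. Of 12 tested genes that flank the cluster none was called, 6 were below the controls at 96 h and 5 at 120 h, where 21.0% and 19.5% of all genes were. Atf2 had 26.1 and 25.6 FPKM against 30.3, 31.8 and 29.8 FPKM at 96 h, and Lnpk 9.31 and 8.93 FPKM against 12.3, 12.2 and 11.6 FPKM.

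Developmental age was estimated for each library from the wild-type time course, over the 1000 genes that varied most across its stages once Hox genes were set aside, with the stages 96 h and 120 h themselves left out of the reference. The mutant libraries were placed at 97 h and 98 h and their controls at 98 h (replicate 4), 99 h and 98 h. At 120 h the mutant was placed at 122 h and 121 h, and the controls at 124 h, 121 h and 122 h. Mutant and wild type thus overlapped at both stages, and the mean difference was -0.833 h at each, toward a younger mutant. An exact two-sided permutation test within stages gave p = 0.39, where the smallest p it could give was 0.01. Other gene numbers, pseudocounts, measures, reference stages and controls moved the difference between -2.54 h and -0.375 h with p from 0.20 to 0.81. The value of -2.54 h came from a reference with all 8 stages, where mutant replicate 1 at 96 h was placed at 90.5 h and time-course replicate 2 at 92 h, and the difference at 96 h alone was -4.58 h (exact permutation p = 0.40). Ages were read on a grid of 1 h.

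**Figure D5:**
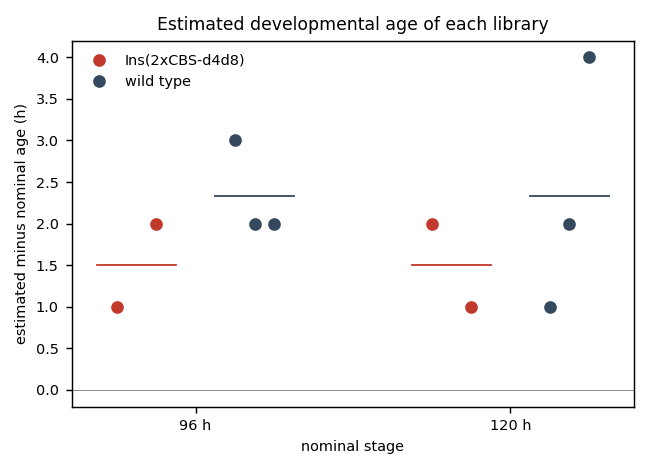
Estimated developmental age of each library minus its nominal stage (vertical axis, hours) for mutant (red) and matched wild type (dark blue) at 96 h and 120 h, with group means as lines. Mutant libraries are at 1 h or 2 h above nominal and wild-type libraries between 1 h and 4 h, so that the groups overlap.

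Genes that wild type switches between the stages were examined as well. In wild-type replicates 1 to 3, which share no library with the comparison, 540 genes outside the Hox clusters rose from 96 h to 120 h by at least 1 on the log2 scale without overlap, and 456 fell. In the mutant the rising genes had a median difference of -0.12 at 96 h and -0.06 at 120 h, and the falling genes one of -0.06 at 96 h and -0.37 at 120 h, against -0.01 and -0.04 over all genes. Single controls departed from the other controls by medians of -0.13 to 0.18, -0.11 to 0.11, -0.08 to 0.10 and -0.37 to 0.34 in the same order, so that each median of the mutant lay within this range. Mutant replicate 1 alone, at -0.19 for rising genes at 96 h, lay below it. Single control libraries carried much of the spread: the falling genes at 120 h had a median of -0.46 without wild-type replicate 4, where the other controls differed by 0.17 either way, and the rising genes at 96 h one of -0.02 without time-course replicate 2. Lower levels of rising genes are what a younger stage has, and lower levels of falling genes what an older stage has. In the mutant both sets had medians below 0 at both stages, but not every set departed from all genes. At 96 h 58.9% of rising and 53.3% of falling genes were lower in the mutant, against 51.7% of all genes. At 120 h these shares were 57.4% and 75.7%, against 57.2%. The set farther from all genes was thus the rising one at 96 h and the falling one at 120 h, both within the range of single controls. Over the genes tested outside the Hox clusters, the median absolute difference from the time course was smallest at the mutant's own stage, 0.205 at 96 h and 0.179 at 120 h. The next smallest was 0.250 at 108 h for the 96 h libraries and 0.233 at 132 h for the 120 h libraries.

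No chromosome stood apart. The median difference of each of 20 chromosomes lay within -0.03 to 0.04 of that over all genes at 96 h and within -0.03 to 0.04 at 120 h, while single controls spread over -0.06 to 0.07 and -0.11 to 0.07. The Y-linked gene Eif2s3y was at 25.4 to 25.5 FPKM in the mutant at 96 h and at 8.66 to 23.2 FPKM in the controls. It was the only 1 of 3 tested Y-linked genes above all controls at that stage. Ddx3y overlapped, at 13.0 to 14.4 FPKM against 9.08 to 14.6 FPKM.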

How the data were processed

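Poly(A) RNA of pooled stembryos was sequenced with a stranded, paired-end protocol. The authors trimmed reads with cutadapt 1.16, aligned them to mm10 with STAR 2.7.7a, kept unique alignments and computed the deposited FPKM with cufflinks 2.2.1 on a custom annotation based on Ensembl. Differences were fitted with limma 3.58.1 on log2(FPKM + 0.1) over 12832 of 55052 genes with a mean of at least 1 FPKM in a group, in the 10 libraries alone, with Benjamini-Hochberg adjustment over all genes tested and a threshold of 0.05. Depth was inferred from the steps of low values, since 1 fragment is the smallest one. Values of repeated identifiers (25) were summed, and the deposited table held the same values as the single-library files. The scripts were tested on simulated data. Named genes were up to 10 called genes per direction with the largest change, called list members, the list members with the highest wild-type level, and the genes of the HoxD locus. Exceptions are stated. Lists and members were chosen with earlier results of these data known. Alternative settings are given in the closing section. Age was the time point of the interpolated time course with the least squared distance, compared by exact permutation.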

Additional observations from a re-analysis of the deposited data

Results flagged for a closer look

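For 12 annotated genes the difference between mutant and wild type itself differed between 96 h and 120 h (limma on the change between stages, Benjamini-Hochberg adjusted p between 1.5e-07 and 0.0128, 120 h minus 96 h on the log2 scale). For Mrps5 the change was -1.56 and for Usp30 1.09, and both had values well above 0 in all 10 libraries. The other 10 were listed at 0 in at least 1 whole group, so that the fitted change depends on the pseudocount and is no measured fold. It was -3.61 for Adcy3, -5.94 for Aph1a and -4.22 for Traf3ip2, which were listed at 0 in both mutant libraries of 120 h. For Snora33 (-6.67) and Snord104 (-13.97) the mutant had values at 96 h alone, and for Mef2b (4.70), Rad9b (4.82) and Trpc2 (5.14) at 120 h alone, while the controls were listed at 0. For Mtif3 (6.53) the controls of 96 h had 8.60 to 9.90 FPKM and the other 7 libraries were listed at 0. For the antisense gene Hoxd3os1 the change was -1.64, from 16.9 and 19.7 FPKM to 5.07 and 6.57 FPKM in the mutant, with the controls listed at 0 at both stages.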

How the results depend on the processing

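Calls rested on few libraries, and depth was known only by inference. The number of called genes changed by more than 1.5 times under these settings. Without a filter on low values it was 67 at 96 h and 59 for the change between stages. With all 61 libraries it was 2483 at 96 h, 1412 at 120 h and 73 for the change, and a variance trend gave 10 for the change. With wild-type replicates 1 to 4 as controls it was 394 at 96 h and 274 at 120 h. With 2 settings chosen after seeing the data it was 119, 103 and 43 against the time course alone and 14, 14 and 0 without genes listed at 0 or well above it. Leaving out 1 library gave 26 to 63, 39 to 85 and 25 to 54, the last above 1.5 times without any mutant library (50, 44, 54 and 34). With a replicate block the count was 68 at 96 h; the replicate numbers share only a number, with correlations of deviations of 0.022 at 96 h and 0.117 at 120 h. Hoxd3 (0.89) and Hoxd4 (0.95) at 120 h passed the threshold with all 61 libraries. Against wild-type replicates 1 to 4 Cldn5 at 120 h became 1.49 and Tmem181b-ps -0.59 and -0.32. For timing genes that changed by at least 2, the 96 h medians were -0.37 for rising and -0.27 for falling genes, the second outside the range of controls (-0.09 to 0.05). Of 53 calls of annotated genes, 47 were kept with a pseudocount of 1 FPKM, 49 with median scaling, 53 with upper-quartile scaling, 37 without the filter, 37 with a variance trend, 33 with the block, 16 against wild-type replicates 1 to 4 and 26 to 43 without 1 library. The cause of these changes was not tested.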

Other observations

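Of 5 tested genes of the interferon response, 4 were above all controls in both mutant libraries at 96 h (median difference 0.75) and 3 below at 120 h (-0.59), and none was called. Bst2, a membrane protein that tethers viruses, had 16.9 and 15.6 FPKM against 11.3, 8.22 and 7.30 FPKM at 96 h. Ifitm3, which is also a marker of germ cell precursors, had 34.2 and 36.5 FPKM against 28.8, 15.2 and 21.2 FPKM. Both were named after their values were seen. The medians at 96 h and 120 h were 0.27 and -0.35 for primordial germ cells, -0.20 and -0.87 for notochord and floor plate, and -0.72 and 0.03 for intermediate and lateral mesoderm. They were 0.63 and 0.01 for 3 tested extraembryonic genes and 0.09 and 0.11 for 3 genes of X inactivation. For the single tested blood gene the differences were 0.43 and -0.86.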
